A study of Mus musculus with 4 samples.

Results

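The genes of voltage-gated sodium and calcium channels and of all potassium channel families were followed from progenitor to young neuron in the mouse forebrain at embryonic stage E12.5. Members were the genes whose symbol begins with Kcn and a letter, Cacna, Cacnb or Cacng, or is Scn with a number and a or b, which gave 138 of the 43346 genes listed. The pattern also took in 5 noncoding RNAs named after channel genes, and it missed the sodium channel gene Scn2a, which is listed under the older name Scn2a1. Single-cell RNA sequencing counts came from 4 droplet libraries of wild-type C57BL/6 embryos with no transgene or treatment, 1 each from the cortex (CTX) and from the ganglionic eminences, named caudal (CGE), lateral (LGE) and medial (MGE). Tissue was pooled over embryos and sexes, and with 1 library per region a region and its library cannot be told apart. The labels describe sorting for live cells and the methods describe wild-type cells as unsorted, which was not settled.

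Voltage-gated sodium channels carry the rising phase of the action potential, calcium channels couple depolarization to calcium entry, and potassium channels set the resting potential and end each spike. In the embryonic forebrain, radial glia-like progenitors that express Nestin (Nes) line the ventricle and give rise to neurons that express doublecortin (Dcx) as they migrate. Progenitors rest at a potential held largely by leak and inward rectifier potassium conductances, and young neurons acquire voltage-gated conductances as they differentiate. The cortex gives rise mainly to glutamatergic projection neurons and the eminences mainly to GABAergic neurons.

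High-Nestin and high-Dcx cells had a natural log of 1 plus UMIs (unique molecular identifiers, each 1 captured mRNA) per 10000 above 1.5 for the gene in question. The libraries held 31451467 to 49794765 UMIs. High-Nestin cells numbered 880, 583, 514 and 164 and high-Dcx cells 785, 2046, 2177 and 2273 in CTX, LGE, MGE and CGE, the order kept below. Cells past both gates numbered 16 to 74 per library and were left out. Counts were summed over the cells of a gate and library and given as CPM, the UMIs of a gene in each 1000000 UMIs of the sum. UMIs were read at 3' ends, 1 per captured mRNA whatever its length, so CPM values were not divided by gene length. All 7 young neuron markers rose in high-Dcx cells and 5 of 7 ventricular zone progenitor markers fell. The other progenitor markers, Sox2 and Pax6, were not called. Sox2 was 584, 820, 878 and 866 CPM in high-Nestin and 35.8, 471, 841 and 690 CPM in high-Dcx cells. All 4 genes of dividing cells fell, but summed to 515 to 1920 CPM in high-Dcx cells, against 1934 to 2914 CPM in high-Nestin cells. High-Dcx cells thus included dividing cells. Summed over each list, pericyte or mesenchyme genes were 18.7 to 83.0 CPM, endothelial genes 6.64 to 61.9 and microglial genes 1.40 to 116 in high-Nestin cells. In high-Dcx cells they were at most 7.55, 3.24 and 9.62 CPM. Cells called vascular or microglial, a class that took in mesenchymal cells, numbered 2 to 8 among the high-Nestin cells of a library. Any 2 libraries shared 3 or fewer barcodes among gated cells.

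Channel genes were for the most part more abundant in high-Dcx than in high-Nestin cells. The summed level of the 133 members that are channel genes was 516, 547, 585 and 640 CPM in high-Nestin cells of CTX, LGE, MGE and CGE, and 1302, 1092, 1019 and 1457 CPM in high-Dcx cells of the same libraries. The sums of the cell groups did not overlap. Of the 138 members, 127 had a UMI in these cells and 11 had none, and 45 reached 10 CPM in at least 1 of the 8 sums. The members just inside that limit were Kcnh3 at a highest level of 10.1 CPM and Kcnj10 at 10.6, and those just outside were Scn1a at 9.01 and Cacng3 at 8.10.

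In the test across libraries (edgeR quasi-likelihood test with library as a block, Benjamini-Hochberg adjustment over 12340 genes, called at an adjusted p below 0.05 and a log2 fold change of at least 0.25), 54 members had enough counts. Of these, 33 were higher in high-Dcx cells, against 27.9% of all genes tested, and 6 were higher in high-Nestin cells, against 27.6%. The median log2 fold change was 1.56 over the members tested and 0.02 over all genes tested. Among the 41 members tested that reached 10 CPM, 27 rose and 6 fell, against 30.3% and 29.1% of the genes that reached it. A member that reached 10 CPM only in high-Dcx cells passed this limit through the group where its highest level lay. These counts therefore describe the members and are not a test of them. Leaving out the CGE library lowered the number higher in high-Nestin cells from 6 to 3. The libraries stood in for replicates in this test, so its error is the spread of the difference between regions.

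**Figure D1:**
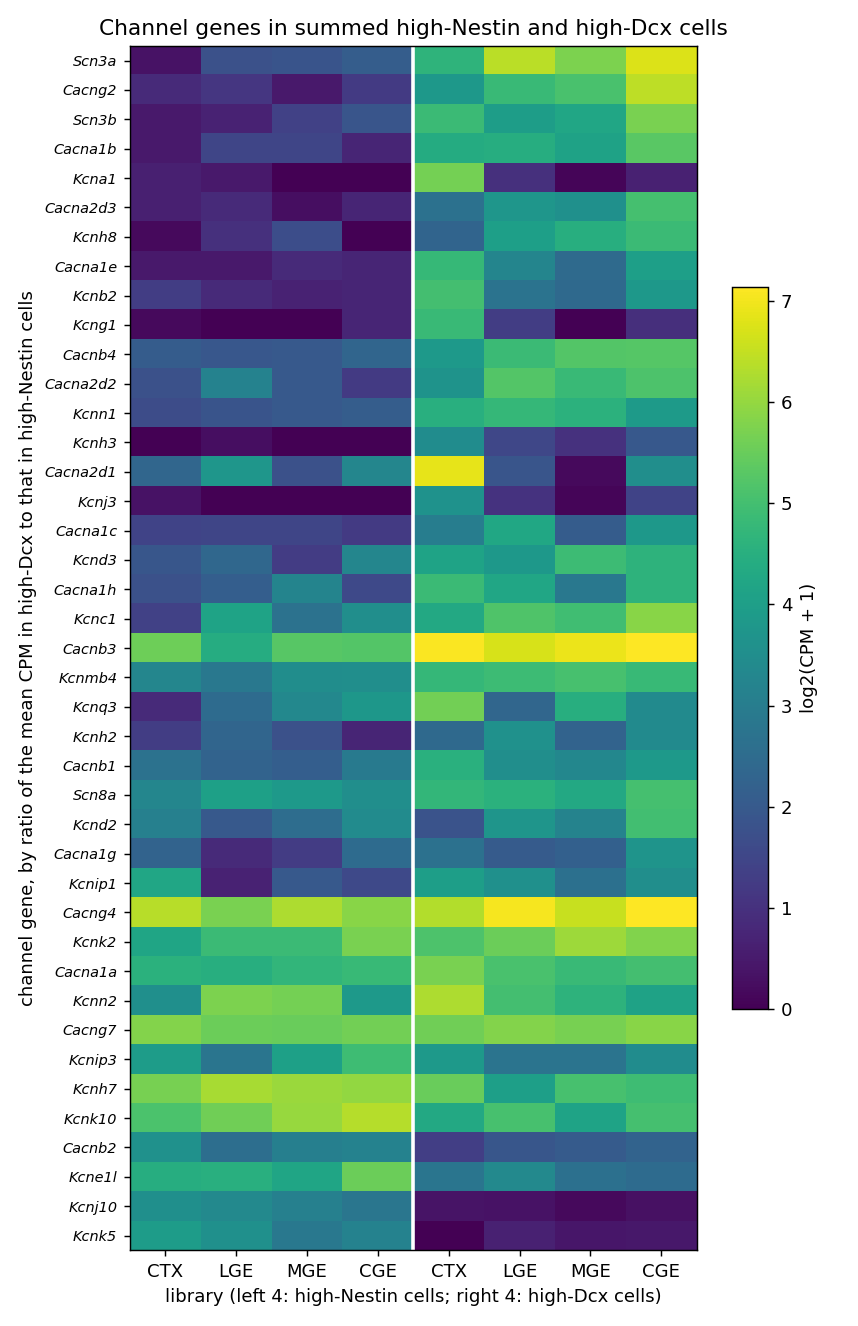
Level of 41 channel genes that reached 10 CPM in any sum, as log2(CPM + 1), in high-Nestin cells (left 4 columns) and high-Dcx cells (right 4 columns) of each library, ordered by the ratio of the mean levels with 1 CPM added to both. Scn3a stands at the top with 0.266 to 3.32 CPM in high-Nestin cells and 24.2 to 108 in high-Dcx cells, and Kcnj10 and Kcnk5 at the bottom, while the Kcna1, Kcng1 and Cacna2d1 rows are bright in the CTX high-Dcx column.

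First expression in high-Dcx cells was taken as at least 10 CPM there and at least 4 times the high-Nestin level in every library where 10 CPM was reached. This held for 18 members, against 5.43% of all genes that reached 10 CPM. Of the genes of pore-forming subunits it held for 4 calcium channel alpha1 genes (Cacna1b, Cacna1c, Cacna1e, Cacna1h), 1 sodium channel alpha gene (Scn3a) and potassium channel genes that included Kcna1, Kcnb2, Kcnh3, Kcnh8, Kcnj3 and Kcnn1, and for none of the two-pore leak channels. The accessory or silent subunit genes in the set were Cacna2d2, Cacna2d3, Cacnb4, Cacng2, Kcng1 and Scn3b. Of the 18, Kcnj3, Kcng1, Kcna1 and Kcnh3 reached 10 CPM in CTX high-Dcx cells only, were too low elsewhere for the test and were not tested. The rule asks nothing of a library below 10 CPM in high-Dcx cells. Cacna1h met it although its level in MGE, below 10 CPM in both groups, was lower in high-Dcx than in high-Nestin cells. With other gates, thinned cells, doublets kept or vascular and microglial cells removed, 14 to 21 members met the rule.

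Scn3a, the pore-forming subunit of the sodium channel that prevails in embryonic neurons, was 0.266, 2.40, 2.61 and 3.32 CPM in high-Nestin cells of CTX, LGE, MGE and CGE. In high-Dcx cells it was 24.2, 83.1, 52.1 and 108 CPM. Every high-Dcx value lay above every high-Nestin value, with a log2 fold change of 5.10 ± 0.27 (SE, edgeR adjusted p = 0.000186). Scn3b, a beta subunit that modifies sodium channel gating and surface expression, was 0.399, 0.60, 1.61 and 2.66 CPM in high-Nestin cells of CTX, LGE, MGE and CGE and 28.0, 14.7, 17.7 and 51.3 CPM in high-Dcx cells. Its groups did not overlap either, and its log2 fold change was 4.61 ± 0.40 (edgeR adjusted p = 0.000533). Among high-Dcx cells, Scn3a was lowest in CTX and Scn3b in LGE, and both were highest in CGE.

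Scn8a, a sodium channel of mature axon initial segments and nodes that was named after its values were seen, was present in progenitors already, at 8.65 to 15.6 CPM, and was 19.0 to 32.0 CPM in high-Dcx cells. Its rise was 1.10 ± 0.25 on the log2 scale (edgeR adjusted p = 0.0121). In all, 3 of the 4 sodium channel alpha genes tested and both beta genes tested were higher in high-Dcx cells, and none was higher in high-Nestin cells. Scn2a1 lay outside the pattern and was named after its values were seen. It was 0.402 to 1.99 CPM in high-Nestin cells and 9.37, 5.54, 2.70 and 16.2 CPM in high-Dcx cells, and its log2 fold change was 3.35 ± 0.29 (edgeR adjusted p = 0.0005).

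All 6 calcium channel alpha1 genes tested were higher in high-Dcx cells. Cacna1e, the R-type pore, was 0.399, 0.400, 0.804 and 0.664 CPM in high-Nestin cells of CTX, LGE, MGE and CGE and 26.3, 8.48, 4.50 and 15.2 CPM in high-Dcx cells. Cacna1b, the N-type pore of presynaptic terminals, was 0.399, 1.80, 1.81 and 0.664 CPM in high-Nestin cells and 19.8, 20.6, 16.4 and 38.5 CPM in high-Dcx cells. For neither gene did the groups overlap, and the log2 fold changes were 4.56 ± 0.57 (edgeR adjusted p = 0.00153) and 4.24 ± 0.44 (edgeR adjusted p = 0.000896). Cacna1a, the P/Q-type pore, was by contrast 21.4 to 27.2 CPM in high-Nestin cells and 27.6 to 51.5 CPM in high-Dcx cells. Its log2 fold change was 0.64 ± 0.20 (edgeR adjusted p = 0.0385).

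The calls of Cacna1a and of the T-type genes Cacna1h and Cacna1g, the last pair named after their values were seen, were each lost without any of 3 libraries. Cacna1h was 2.40, 3.40, 8.24 and 1.99 CPM in high-Nestin cells of CTX, LGE, MGE and CGE and 28.4, 17.8, 6.30 and 23.5 CPM in high-Dcx cells. Its MGE levels were in the opposite order to the other libraries, with a ratio of 0.765. Its edgeR adjusted p was 0.045 with all libraries, 0.103 without CTX, 0.139 without LGE and 0.137 without CGE. For Cacna1a it was 0.0628 without CTX, 0.121 without LGE and 0.0582 without CGE. Cacna1g rose by 1.27 ± 0.31 (edgeR adjusted p = 0.0158), and its adjusted p was 0.0520 without LGE, 0.0602 without MGE and 0.0645 without CGE, and it was not called without the library block either.

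The alpha2delta subunits, which carry calcium channels to the membrane and bind gabapentin in the case of Cacna2d1 and Cacna2d2, did not all move one way. Cacna2d3 was 0.532, 0.80, 0.201 and 0.664 CPM in high-Nestin cells of CTX, LGE, MGE and CGE and 5.29, 12.6, 11.1 and 31.9 CPM in high-Dcx cells, without overlap. Cacna2d2 was 2.40, 8.0, 3.01 and 1.33 CPM in high-Nestin cells and 11.8, 36.5, 27.6 and 34.6 CPM in high-Dcx cells, also without overlap. Their log2 fold changes were 4.44 ± 0.39 (edgeR adjusted p = 0.000561) and 2.88 ± 0.34 (edgeR adjusted p = 0.00133). Most Cacna2d2 UMIs of CTX high-Dcx cells came from a few cells with Cajal-Retzius genes, which are described below. Whether its groups would overlap without those cells was not tested.

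Cacna2d1 went in opposite directions. It was 4.12, 12.4, 2.41 and 8.63 CPM in high-Nestin cells of CTX, LGE, MGE and CGE and 117, 2.66, 0.139 and 10.6 CPM in high-Dcx cells. The high-Dcx level was thus 28.4 times the high-Nestin level in CTX (95% interval 19.9 to 42.2), while in LGE it was 0.215 (0.140 to 0.327) and in MGE 0.0574 (0.00624 to 0.258) of it. The common log2 fold change was 0.27 ± 1.57 and was not called (edgeR adjusted p = 0.898). Intervals of levels and ratios here are exact and cover counting error only, and the difference between libraries could not be tested with 1 library per region.

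Of the beta subunits, which bind the alpha1 pore inside the cell, Cacnb3 was the most abundant at 46.2, 20.2, 37.8 and 36.5 CPM in high-Nestin cells of CTX, LGE, MGE and CGE. It was 136, 103, 121 and 140 CPM in high-Dcx cells, above all high-Nestin values, with a log2 fold change of 1.95 ± 0.15 (edgeR adjusted p = 0.000404). Cacnb4 was 2.80 to 3.98 CPM in high-Nestin cells and 13.2, 28.0, 36.5 and 36.9 CPM in high-Dcx cells, a log2 fold change of 3.10 ± 0.29 (edgeR adjusted p = 0.000673). Cacnb2 went the other way. It was 11.3, 5.00, 7.44 and 7.97 CPM in high-Nestin cells and 1.51, 2.73, 3.12 and 3.81 CPM in high-Dcx cells, so the groups did not overlap. It fell by 1.39 ± 0.38 on the log2 scale (edgeR adjusted p = 0.0236), and its adjusted p was 0.0702 without MGE, 0.0558 without CGE and 0.0654 with gates at 1.0.

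The gamma family holds mainly TARPs, partners of AMPA-type glutamate receptors. Cacng2 (stargazin) was 0.798, 1.20, 0.402 and 1.33 CPM in high-Nestin cells of CTX, LGE, MGE and CGE and 13.0, 27.8, 33.1 and 84.2 CPM in high-Dcx cells. Its log2 fold change of 5.10 ± 0.35 was the largest among the members that reached 10 CPM (edgeR adjusted p = 0.000302). Cacng4 and Cacng7 were the most abundant of the family in high-Nestin cells. Cacng4 was 51.4 to 81.8 CPM in high-Nestin cells and 78.1 to 140 CPM in high-Dcx cells, with overlap, and was not called (0.79 ± 0.27, edgeR adjusted p = 0.0519), but was called without CTX (1.05, edgeR adjusted p = 0.012), without the library block (edgeR adjusted p = 0.0176) and with DESeq2 (adjusted p = 0.0177). Cacng7 was 44.6 to 55.6 CPM in high-Nestin and 47.6 to 57.1 CPM in high-Dcx cells and was not called (0.20 ± 0.11, edgeR adjusted p = 0.189). Without CTX, where its ratio of high-Dcx to high-Nestin level was 0.856 (0.737 to 0.993) against 1.21 (1.04 to 1.41) in LGE, its log2 fold change was 0.32 and was called (edgeR adjusted p = 0.0406).

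**Figure D2:**
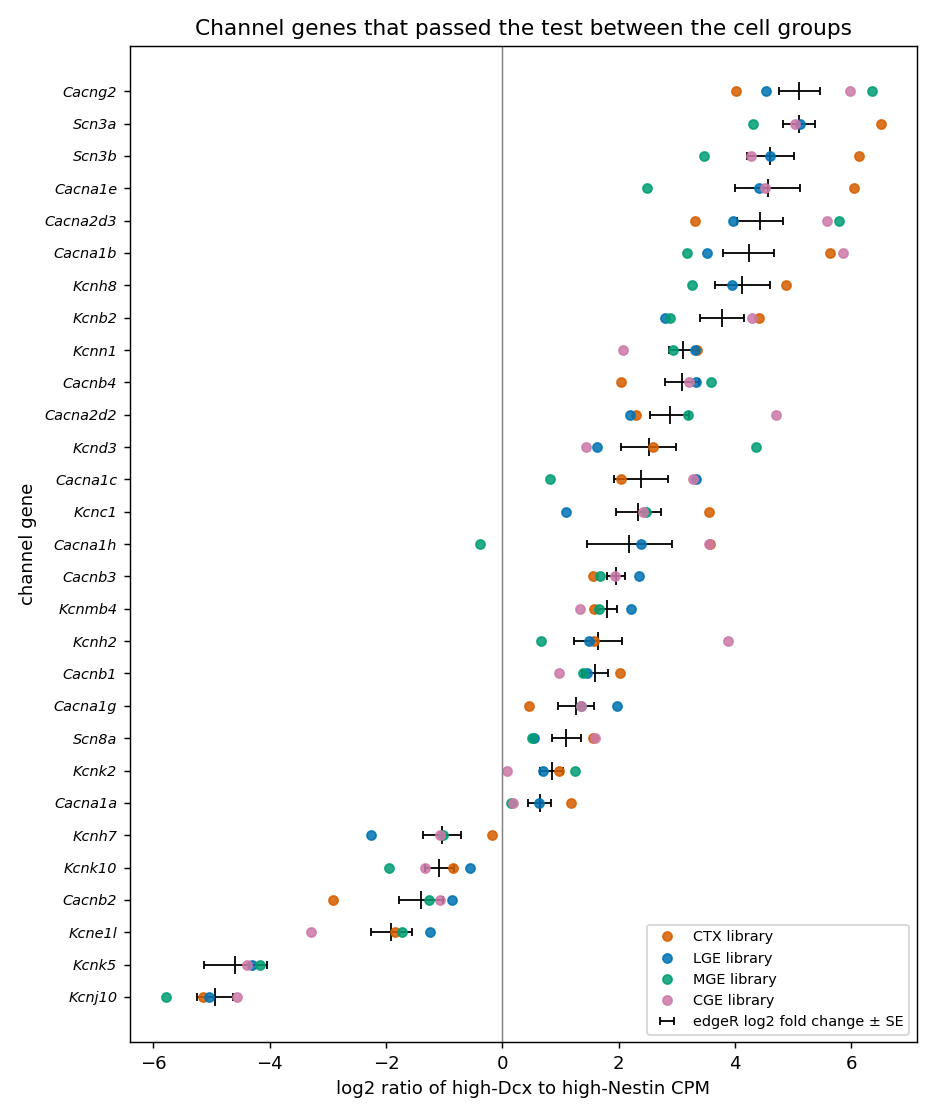
Log2 ratio of the high-Dcx to the high-Nestin level of 29 channel genes that reached 10 CPM and were called, per library (points) and in the fit over the libraries (bar, ± SE). Libraries with 0 UMIs on one side have no point. For 28 of these genes every point lies on the side of the fitted value, and for Cacna1h the MGE point lies on the other side.

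Kcnq3, a subunit of the M-current channel that limits repetitive firing, was named after its values were seen. It was 0.798, 4.598, 9.04 and 12.6 CPM in high-Nestin and 47.9, 4.14, 21.1 and 9.71 CPM in high-Dcx cells. The groups overlapped and it was not called (1.46 ± 1.02, edgeR adjusted p = 0.266).

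The delayed rectifier gene Kcnb2 was 0.603 to 1.46 CPM in high-Nestin cells and 31.1, 5.54, 4.43 and 12.9 CPM in high-Dcx cells of CTX, LGE, MGE and CGE (log2 fold change 3.77 ± 0.37, edgeR adjusted p = 0.000779). Kcnc1, of the fast delayed rectifiers, was 1.60, 16.6, 5.43 and 10.6 CPM in high-Nestin and 18.7, 35.3, 30.1 and 57.1 CPM in high-Dcx cells (2.34 ± 0.38, edgeR adjusted p = 0.00387). In both the groups did not overlap. Kcnd3, of the A-type channels that inactivate rapidly, was 1.41 to 8.63 CPM in high-Nestin and 13.0 to 28.9 CPM in high-Dcx cells, with a log2 fold change of 2.52 ± 0.47 (edgeR adjusted p = 0.0063).

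Kcnd2, the other A-type gene, was 7.58, 3.0, 4.82 and 9.96 CPM in high-Nestin cells of CTX, LGE, MGE and CGE and 2.57, 12.1, 8.17 and 30.7 CPM in high-Dcx cells. The high-Dcx level was thus lower in CTX, at 0.339 of the high-Nestin level (0.185 to 0.591), and higher in LGE (4.04 times, 2.39 to 7.38), MGE (1.69, 1.09 to 2.75) and CGE (3.08, 1.85 to 5.55). It was not called over the 4 libraries (0.83 ± 0.59, edgeR adjusted p = 0.273) and was called without CTX (1.54, edgeR adjusted p = 0.00662). Kcnip3, a calcium-binding partner of the A-type channels, was 5.80 to 29.2 CPM in high-Nestin and 5.68 to 13.6 CPM in high-Dcx cells and was not called.

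Among calcium-activated potassium channels, Kcnn1 was 2.13 to 3.32 CPM in high-Nestin cells and 21.8, 25.8, 23.1 and 14.0 CPM in high-Dcx cells of CTX, LGE, MGE and CGE, with a log2 fold change of 3.11 ± 0.24 (edgeR adjusted p = 0.000411). Kcnn2, which encodes a related small-conductance channel, showed no common direction. It was 10.8, 51.6, 49.2 and 13.3 CPM in high-Nestin and 76.3, 31.3, 23.7 and 16.2 CPM in high-Dcx cells. Its ratio was 7.08 (5.59 to 9.07) in CTX but 0.608 (0.520 to 0.711) in LGE and 0.481 (0.407 to 0.569) in MGE, and it was not called (0.30 ± 0.70, edgeR adjusted p = 0.737). Kcnmb4, the neuronal beta subunit of the large-conductance channel, was 6.20 to 10.6 CPM in high-Nestin and 25.8 to 32.5 CPM in high-Dcx cells and rose by 1.80 ± 0.18 (edgeR adjusted p = 0.000804).

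Kcnh8, of the ELK family, was 0.133, 1.00 and 2.21 CPM in high-Nestin cells of CTX, LGE and MGE, with 0 UMIs in CGE. It was 3.93, 15.4, 21.1 and 28.2 CPM in high-Dcx cells of CTX, LGE, MGE and CGE, and its log2 fold change was 4.13 ± 0.47 (edgeR adjusted p = 0.00117). Against a floor of 3 UMIs per library, the CGE level was at least 14.1-fold higher in high-Dcx cells. Kcnh7, of the ERG family, was the reverse at 50.2, 72.8, 66.1 and 61.8 CPM in high-Nestin and 44.4, 15.2, 32.7 and 29.4 CPM in high-Dcx cells. It was lower in high-Dcx cells of all 4 libraries and the groups did not overlap, although in CTX the interval of the ratio held 1 (0.886, 0.758 to 1.04). It fell by 1.03 ± 0.33 (edgeR adjusted p = 0.0379), and its adjusted p was 0.0669 without LGE, 0.106 without MGE, 0.106 without CGE, 0.0896 with no upper limit on genes per cell and 0.0558 with gates at 1.0.

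A member marked high-Nestin cells if it had at least 10 CPM there and at least 2 times the high-Dcx level in every library where 10 CPM was reached. These were the inward rectifier gene Kcnj10, the leak channel gene Kcnk5 and the accessory subunit genes Kcne1l, Cacnb2 and Cacna2d1. They were 5 of the 45 members that reached 10 CPM, a share near the 11.8% of all genes that reached it. The set does not stand for its classes, since the leak channel gene Kcnk2 was called higher in high-Dcx cells. The inward rectifier gene Kcnj3 was among those first expressed there. Cacna2d1 was in this set through LGE alone, and Kcnj10 and Cacnb2 through CTX alone, since they stayed below 10 CPM in high-Nestin cells elsewhere. The number was 4 or 5 under the 5 alternatives run for it.

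Kcnj10, the inward rectifier that sets the resting potential of glia and buffers potassium, was 10.6, 9.20, 7.64 and 5.98 CPM in high-Nestin cells of CTX, LGE, MGE and CGE, and 0.302, 0.280, 0.139 and 0.254 CPM in high-Dcx cells. Kcnk5, an acid-sensitive two-pore leak channel, was 14.4, 11, 6.23 and 7.97 CPM in high-Nestin cells, had 0 UMIs in CTX high-Dcx cells and was 0.561, 0.346 and 0.381 CPM in those of LGE, MGE and CGE. For neither did the groups overlap. They fell by 4.94 ± 0.31 (edgeR adjusted p = 0.000242) and 4.59 ± 0.54 (edgeR adjusted p = 0.00126) on the log2 scale. With a floor of 3 UMIs in CTX high-Dcx cells, Kcnk5 was at least 31.7-fold higher in CTX high-Nestin cells, and in the other libraries it was 18.0 to 20.9 times as high.

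Kcne1l, a single-pass subunit of the KCNE family that modulates potassium channels, was 21.02, 21.8, 17.3 and 45.2 CPM in high-Nestin cells of CTX, LGE, MGE and CGE and 5.89, 9.18, 5.26 and 4.63 CPM in high-Dcx cells, without overlap. It fell by 1.91 ± 0.35 (edgeR adjusted p = 0.00604). Kcnk10, a mechanosensitive leak channel, was 33.8, 47.6, 64.1 and 80.4 CPM in high-Nestin and 18.7, 32.3, 16.6 and 32.0 CPM in high-Dcx cells. It fell by 1.08 ± 0.25 (edgeR adjusted p = 0.0123), and its adjusted p was 0.0559 without CGE. Its close relative Kcnk2 was in the opposite order at 17.3, 28.0, 28.3 and 51.1 CPM in high-Nestin and 34.2, 45.3, 67.5 and 54.3 CPM in high-Dcx cells. It rose by 0.85 ± 0.20 (edgeR adjusted p = 0.0135), and its adjusted p was 0.0566 without MGE, 0.0649 without the library block and 0.0510 with no upper limit on genes per cell.

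Further members that reached 10 CPM were named after their values were seen. Kcnh2, the founding ERG channel gene (1.65), Cacnb1, a calcium channel beta subunit (1.60), and Cacna1c, an L-type pore (2.38), rose in high-Dcx cells on the log2 scale. Kcnh2 was not called without LGE (1.68, edgeR adjusted p = 0.0669). Kcnip1, another partner of the A-type channels, was 17.8, 0.60, 3.01 and 1.99 CPM in high-Nestin and 15.0, 11.1, 5.26 and 10.5 CPM in high-Dcx cells. It was not called with all libraries. Among the fits with a library left out, it was called without CTX only (2.26, edgeR adjusted p = 0.0225). Of the 93 members below 10 CPM, 82 had a UMI and 13 were tested, of which 6 were higher in high-Dcx and 0 in high-Nestin cells by edgeR.

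Kcnj8, an inward rectifier of pericytes, stayed below 10 CPM in all sums of gated cells. It was 74.1, 358, 454 and 374 CPM in the cells called vascular or microglial, mesenchymal cells included, in CTX, LGE, MGE and CGE. In high-Nestin cells it had 0, 30, 14 and 11 UMIs. With vascular and microglial cells removed it had 0 UMIs in high-Nestin cells of all 4 libraries. Without those cells the test again called 33 members higher in high-Dcx and 6 higher in high-Nestin cells, and 0 of the 39 calls were lost. Kcnq1ot1, a noncoding RNA antisense to Kcnq1 and not a channel, was the most abundant member at 52.2 to 250 CPM in high-Nestin and 161 to 414 CPM in high-Dcx cells and rose by 0.94 ± 0.20 (edgeR adjusted p = 0.0105), but was not called without the library block (0.82, edgeR adjusted p = 0.159). Of the 45 members at 10 CPM, 18 shared exon sequence with another annotated gene, in each case on the opposite strand. Such a gene could add to those counts only if reads of the opposite strand were counted. The paper states default Cell Ranger parameters without naming the strand setting, so this was not settled here. Cacng2, Kcnj3 and Kcnh3 were among the 18.

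Of 14 tested partner genes of these channels, namely genes of pacemaker channels, the sodium leak channel complex, sodium channel-binding FGFs, A-type channel partners and axon initial segment scaffolds, 9 were higher in high-Dcx cells, against 27.9% of all genes tested, and 0 in high-Nestin cells, against 27.6%, by edgeR. Their median log2 fold change was 1.91, and that of all genes 0.02. Nalcn, Fgf12, Fgf13, Ank2 and Cntnap2 were not called. Ank3, which encodes ankyrin-G, the organizer of the axon initial segment, was 7.32, 11.4, 15.7 and 8.63 CPM in high-Nestin cells of CTX, LGE, MGE and CGE and 231, 158, 129 and 277 CPM in high-Dcx cells (4.20 ± 0.38, edgeR adjusted p = 0.000578). Fgf13, a partner of sodium channels and of microtubules, was 40.8 to 118 CPM in high-Nestin and 34.5 to 63.3 CPM in high-Dcx cells and was not called (-0.28 ± 0.27, edgeR adjusted p = 0.407).

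Rest encodes the repressor that binds RE1 elements of many neuronal genes, sodium channels among them. It was 83.0, 44.0, 37.8 and 67.1 CPM in high-Nestin cells of CTX, LGE, MGE and CGE and 9.07, 3.30, 8.93 and 14.9 CPM in high-Dcx cells, without overlap, and fell by 2.68 ± 0.31 (edgeR adjusted p = 0.00122). Of its corepressors, Rcor1 (-0.29, edgeR adjusted p = 0.0523) and Rcor2 (0.51, edgeR adjusted p = 0.248) were not called. The part of Rest in any channel's level was not tested.

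The step from dividing to nondividing high-Dcx cells was followed in the 3 eminence libraries with further gates. Subventricular zone-like cells (SVZ) had Mki67, a gene of dividing cells, and Ccnd2, and lacked Mapt and Rbfox3. Mantle zone-like cells (MZ) lacked Nes, Hes5, Mki67, Ccnd1 and Ccnd2. The paper takes the former as cycling progenitors and the latter as postmitotic cells. There were 383 SVZ and 560 MZ cells in LGE, 208 and 840 in MGE and 72 and 1205 in CGE. Of 47 members tested, 33 were higher in MZ cells, against 23.2% of all 10961 genes tested, and 4 (Kcne1l, Kcnh7, Kcnn2 and Kcnab3) were higher in SVZ cells, against 23.0%. The median log2 fold change was 1.35 over members and 0.01 over all genes. Kcnab3, a cytoplasmic beta subunit below 10 CPM, was named after its values were seen. The number higher in SVZ cells was 1 with DESeq2 and 2 without MGE.

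Scn3a was 8.03, 11.8 and 4.03 CPM in SVZ cells of LGE, MGE and CGE and 139, 78.4 and 128 CPM in MZ cells. The MZ level was 17.3 times (11.8 to 26.3), 6.65 times (4.36 to 10.6) and 31.9 times (10.9 to 155) the SVZ level, and the log2 fold change between MZ and SVZ was 3.6 ± 0.26 (edgeR adjusted p = 4.17e-06). Scn3b was 2.30, 1.03 and 6.72 CPM in SVZ and 21.7, 28.5 and 66.9 CPM in MZ cells (3.48 ± 0.29, edgeR adjusted p = 1.02e-05). Cacna1e had 0 UMIs in the SVZ cells of all 3 libraries and was 14.9, 6.26 and 19.0 CPM in MZ cells of LGE, MGE and CGE. Against a floor of 3 UMIs per library it was at least 17.3-fold, 4.07-fold and 4.71-fold higher in MZ cells. For none of these genes did SVZ and MZ levels overlap.

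Other members were already present in SVZ cells. Cacnb3 was 64.0, 104 and 78.0 CPM in SVZ cells of LGE, MGE and CGE and 138, 140 and 152 CPM in MZ cells (0.72 ± 0.14, edgeR adjusted p = 0.002). Cacna1b was 9.75, 8.20 and 17.5 CPM in SVZ and 28.0, 22.4 and 45.6 CPM in MZ cells (1.35 ± 0.19, edgeR adjusted p = 0.000322). Kcnh8 was 5.45, 10.3 and 9.41 CPM in SVZ and 20.0, 26.5 and 31.8 CPM in MZ cells (1.53 ± 0.22, edgeR adjusted p = 0.000382). For all 3 the SVZ levels lay below the MZ levels without overlap. Cacng2 was 4.30, 12.8 and 10.8 CPM in SVZ and 56.9, 51.7 and 106 CPM in MZ cells and stood between these patterns. Kcnd2, not called between high-Nestin and high-Dcx cells, was 3.73, 2.56 and 4.03 CPM in SVZ and 19.1, 13.5 and 37.8 CPM in MZ cells and rose by 2.44 ± 0.28 (edgeR adjusted p = 8.98e-05). Cacng4 rose by 1.17 ± 0.22 (edgeR adjusted p = 0.00203). Kcnn1 (1.87), Cacnb4 (2.15) and Kcnk2 (1.30) were also called higher in MZ cells, Kcnk2 not without the library block (edgeR adjusted p = 0.0663).

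Members that were called higher in high-Nestin cells or marked them differed in their course from SVZ to MZ cells. Kcnj10 and Kcnk5 were at 0.861 to 2.05 CPM in SVZ cells already, with 1 to 4 UMIs a library. Cacnb2 was 2.58, 3.59 and 0 CPM in SVZ and 2.38, 3.43 and 4.78 CPM in MZ cells of LGE, MGE and CGE and was not called (0.27 ± 0.56, edgeR adjusted p = 0.725). Cacna2d1, which marked high-Nestin cells but was not called, had 1 or 2 UMIs in SVZ cells of a library and was not tested. Its MZ level was 9.34 times (2.24 to 83.0) the SVZ level in LGE and 7.31 times (1.27 to 292.5) in CGE. In MGE both groups held 1 UMI. Kcne1l was 13.2, 7.69 and 16.1 CPM in SVZ and 4.17, 5.25 and 2.46 CPM in MZ cells of LGE, MGE and CGE and fell by 1.65 ± 0.41 (edgeR adjusted p = 0.0083). Kcnk10 was 28.4, 14.4 and 35.0 CPM in SVZ and 32.2, 16.2 and 29.1 CPM in MZ cells and was not called (-0.06 ± 0.18, edgeR adjusted p = 0.863). Kcnh7 was 18.4, 57.4 and 35.0 CPM in SVZ and 15.5, 23.0 and 27.2 CPM in MZ cells. It fell by 0.83 ± 0.23 (edgeR adjusted p = 0.0139), and was not called without MGE (-0.39, edgeR adjusted p = 0.224), with DESeq2 (adjusted p = 0.0648) or without the library block (edgeR adjusted p = 0.145). Kcnn2, not a member higher in high-Nestin cells over the 4 libraries, fell by 0.80 ± 0.29 (edgeR adjusted p = 0.0437). It was not called without LGE (-0.18, edgeR adjusted p = 0.614), with DESeq2 (adjusted p = 0.173), without the library block (0.0747), with doublets kept (0.0560) or with no upper limit on genes (0.0879).

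**Figure D3:**
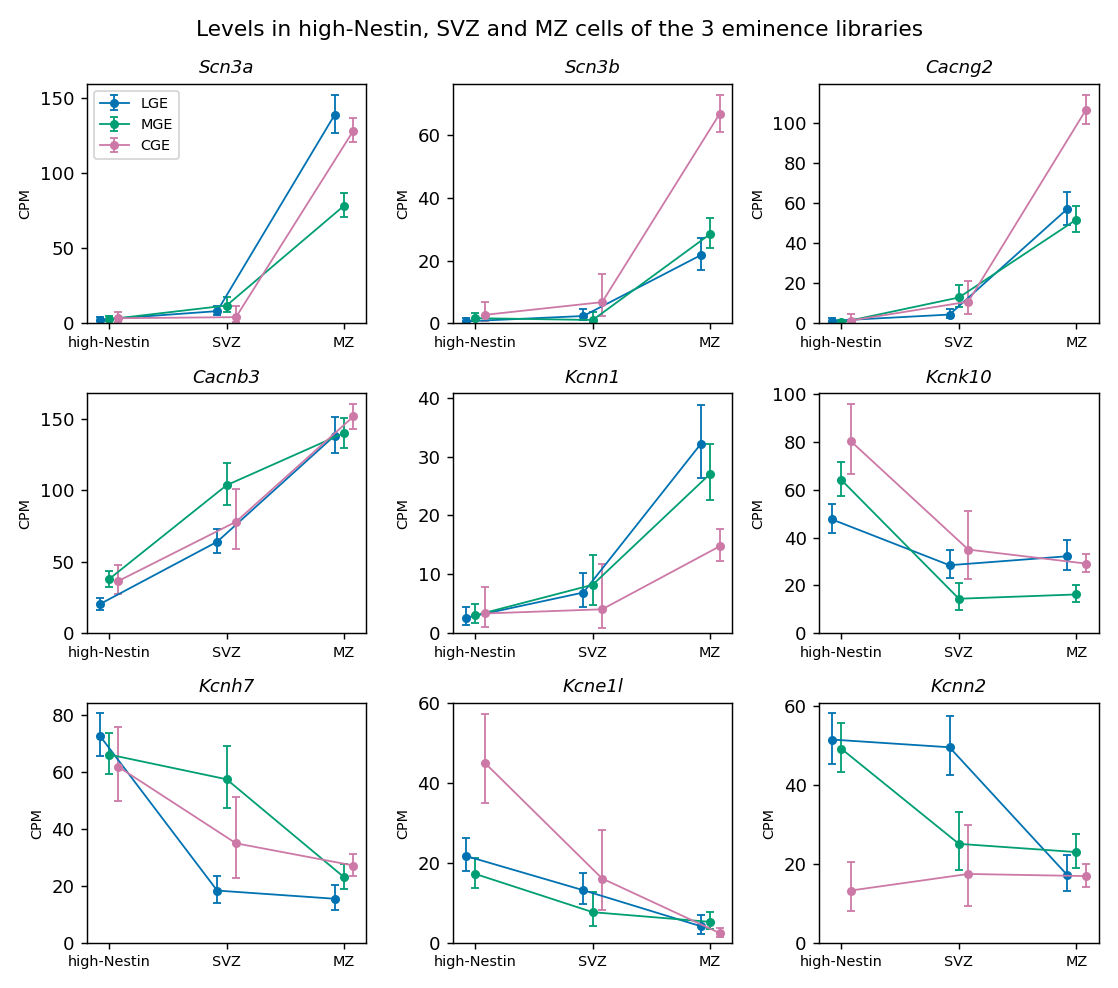
Level (CPM, with exact 95% intervals for counting error) of 9 members in high-Nestin, SVZ and MZ cells of the LGE, MGE and CGE libraries, each panel with its own axis from 0. Scn3a, Scn3b and Cacng2 stay at or below 12.8 CPM up to the SVZ step and reach 21.7 CPM or more in MZ cells, Cacnb3 climbs over both steps, and Kcnk10 in LGE, MGE and CGE is lower in SVZ than in high-Nestin cells and level from there.

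Between regions, high-Dcx cells differed in which channels they held. Among the 41 members at 10 CPM or more in any high-Dcx sum, the highest library lay above the next beyond counting error for 31, against 47.4% of all genes that reached 10 CPM there. In high-Nestin cells this held for 8 of 21 members, against 21.6% of all genes. CGE was the highest among high-Nestin cells for Kcne1l (2.07 times the next) and Kcnk2 (1.81 times), and CTX for Kcnip1 (5.91 times, 3.46 to 10.9). CTX was the highest library for 16 of the 31, CGE for 12, MGE for 2 and LGE for 1. The split by library over all genes was not computed, so these counts are not read as a trait of channel genes. CTX stood farthest above the next library for Kcna1, Kcng1, Cacna2d1, Kcnj3 and Kcnh3.

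Kcna1, a low-threshold potassium channel of axons, was 49.1 CPM in CTX high-Dcx cells, 0.982 in LGE, 0.0692 in MGE and 0.571 in CGE, so CTX was 50.1 times (29.4 to 92.6) the next library. Kcng1, a silent subunit that works only together with the Kcnb channels, was 27.7, 1.47 and 0.952 CPM in CTX, LGE and CGE with 0 UMIs in MGE, and CTX was 18.8 times (11.9 to 31.1) the next. Cacna2d1 was 11.1 times (9.35 to 13.2), Kcnj3, of the G protein-gated inward rectifiers, 6.62 times (4.21 to 10.7) and Kcnh3, of the ELK family, 3.47 times (2.35 to 5.17) the next library. Kcnj3 was 11.3, 1.05, 0.0692 and 1.71 CPM in CTX, LGE, MGE and CGE, and Kcnh3 was 10.1, 1.89, 1.04 and 2.92 CPM. CGE was the highest library for Cacng2 at 2.54 times (2.29 to 2.83) and for Cacna2d3 at 2.54 times (2.14 to 3.03) the next.

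Each region's high-Dcx cells also differed in the type of neuron, which was looked at after these values had been seen. Cells with a UMI of Neurod2 or Neurod6 and none of Gad1, Gad2, Dlx5 or Dlx6 were taken as glutamatergic and the converse as GABAergic. Cells with at least 2 of the Cajal-Retzius genes Reln, Trp73, Lhx5 and Ebf3 were set aside. Glutamatergic cells numbered 716, 20, 0 and 75 and GABAergic cells 49, 2012, 2166 and 2141 in CTX, LGE, MGE and CGE. Of the 45 members, 4 were higher in glutamatergic cells beyond counting error in both CTX and CGE, against 2.93% of all genes that reached 10 CPM, and 5 were higher in GABAergic cells in both, against 2.85%. The former were Cacna1e, Cacna2d1, Kcng1 and Kcnq3, and the latter Cacna1b, Cacna2d2, Cacng2, Cacng4 and Scn3b.

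Cacna2d1 went with the type of neuron in CTX, LGE and CGE, and MGE had no glutamatergic cells. It was 120 CPM in CTX, 190 in LGE and 150 in CGE glutamatergic cells, and had 0 UMIs in CTX GABAergic cells and 0.498, 0.139 and 1.36 CPM in those of LGE, MGE and CGE. The glutamatergic level in CGE was 111 times (67.4 to 190) the GABAergic level, and in CTX it was at least 10.6-fold higher against a floor of 3 UMIs. The CTX and CGE glutamatergic levels differed by 0.803 times (0.644 to 1.01), an interval that holds 1. Kcng1 was 29.4, 86.2 and 18.5 CPM in glutamatergic cells of CTX, LGE and CGE, with 10 UMIs behind the LGE value, and 0, 0.498, 0 and 0 CPM in GABAergic cells of CTX, LGE, MGE and CGE.

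Kcna1 was different. It was 52.2 CPM in CTX glutamatergic cells, with 325 UMIs, and had 0 UMIs in the glutamatergic cells of LGE and CGE and in CTX GABAergic cells, which allows up to 25.9, 5.05 and 11.4 CPM. Against a floor of 3 UMIs it was at least 10.3-fold higher in CTX than in CGE glutamatergic cells. In GABAergic cells of LGE, MGE and CGE it was 0.997, 0.0696 and 0.611 CPM. High Kcna1 was thus seen in glutamatergic cells of CTX alone among these groups, and region and library cannot be told apart.

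Scn3a split the glutamatergic cells the other way. Scn3a was 19.1 CPM in CTX glutamatergic cells and 207 and 170 CPM in those of LGE and CGE, while GABAergic cells held 125, 82.2, 52.2 and 105 CPM in CTX, LGE, MGE and CGE. The CTX glutamatergic level was 0.112 times (0.0854 to 0.148) that of CGE, whereas the GABAergic levels of CTX and CGE differed by 1.19 times (0.816 to 1.68), an interval that holds 1. The low Scn3a of the CTX library among high-Dcx cells was thus that of its glutamatergic cells. Cacng2 was 6.10, 8.62 and 47.2 CPM in glutamatergic cells of CTX, LGE and CGE and 144, 28.1, 33.2 and 86.1 CPM in GABAergic cells of CTX, LGE, MGE and CGE. Its LGE glutamatergic level thus lay near that of CTX, unlike Scn3a, but the LGE sum held only 20 cells and 116010 UMIs of all genes.

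Cacna2d2, which is also a marker of Cajal-Retzius cells, the early reelin-secreting neurons of the marginal zone, was 3.37 CPM in CTX glutamatergic and 45.6 CPM in CTX GABAergic cells, and 786 CPM in the 7 cells of CTX and 680 CPM in the 3 cells of CGE with Cajal-Retzius genes. Those 7 cells held 42 of the 78 UMIs of the gene in CTX high-Dcx cells. A typing that asked for 2 genes of a type, also chosen after the data had been seen, left 18 glutamatergic cells in LGE and 60 in CGE. With it Cacna2d1 was 120, 187 and 142 CPM and Kcna1 52.5, 0 and 0 CPM in glutamatergic cells of CTX, LGE and CGE.

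**Figure D4:**
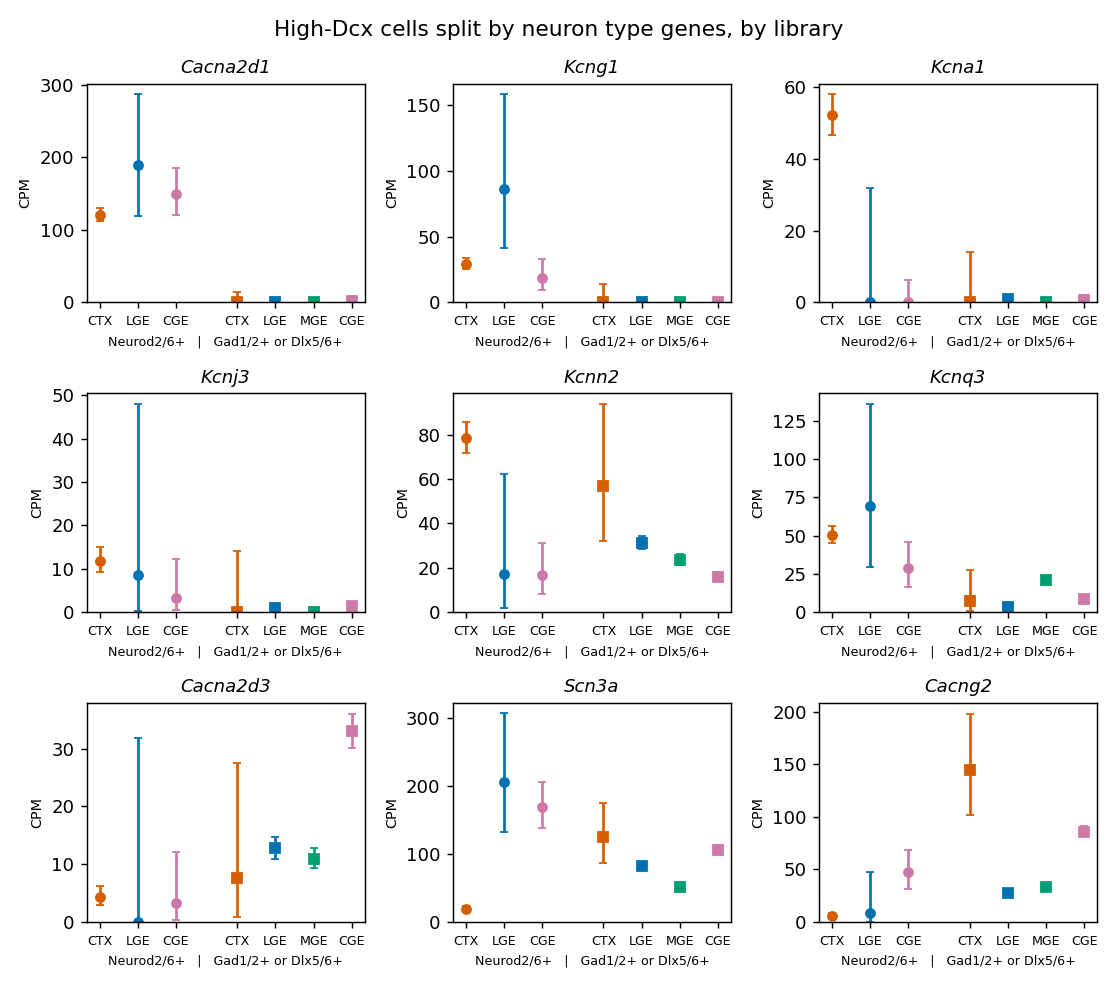
Level (CPM, with exact 95% intervals for counting error) of 9 members in high-Dcx cells divided into glutamatergic (circles, left) and GABAergic (squares, right) cells of each library, each panel with its own axis from 0. Cacna2d1 and Kcng1 are high in glutamatergic cells of CTX, LGE and CGE, Kcna1 is 52.2 CPM in those of CTX and at most 0.997 CPM in any other group, and Scn3a is lowest in CTX glutamatergic cells at 19.1 CPM.

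Shares of cells with a UMI were compared after each cell had been thinned to 3000 UMIs, since high-Nestin cells were deeper (medians of 8440 to 9902 UMIs per library) than high-Dcx cells (6352 to 7929). Scn3a was detected in 7.38%, 19.8%, 12.9% and 25.2% of high-Dcx cells of CTX, LGE, MGE and CGE and in 0.117% to 1.17% of high-Nestin cells. At their own depth the shares of high-Dcx cells were 15.7%, 33.1%, 22.3% and 42.9%. Kcna1 was detected in 10.8% (95% Clopper-Pearson interval 8.66 to 13.2) of CTX high-Dcx cells and in 0.0470% to 0.150% of those of the eminences. Kcnh7, the most abundant member of its family, was detected in 15.0% to 20.4% of high-Nestin and 4.19% to 9.46% of high-Dcx cells. Kcnj10 was detected in 0.617% to 3.01% of high-Nestin cells and 0% to 0.199% of high-Dcx cells, and 0 of 772 CTX high-Dcx cells allows a share of up to 0.389%. At this depth a cell without a UMI of a channel gene cannot be read as a cell without the channel.

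Promoters are shown for the 2 members with the largest rise in high-Dcx cells among those with a window in the RefSeq table, Cacng2 and Cacna1e, and for the 2 with the largest fall, Kcnj10 and Kcnk5. Each is a RefSeq window of 300 bases, from 250 before to 50 after the annotated start, on GRCm38.p6. The windows are chr15:78119231-78119530 for Cacng2 and chr1:154725871-154726170 for Cacna1e, both on the minus strand, chr1:172340960-172341259 on the plus strand for Kcnj10 and chr14:20181733-20182032 on the minus strand for Kcnk5. The RefSeq start lies 748 bases from the GENCODE gene start for Cacng2 and 27 bases for Kcnk5, and coincides with it for Kcnj10. For Cacna1e it lies 158581 bases away, so that window may not be the promoter of the transcripts counted here. Capitals mark the E-box CAGCTG, which proneural factors can bind and which reads the same on both strands, and the GC box, which reads GGGCGG or CCGCCC according to its strand. The Cacna1e window held neither, that of Cacng2 only CAGCTG, and those of Kcnj10 and Kcnk5 only the GC box.
Cacng2: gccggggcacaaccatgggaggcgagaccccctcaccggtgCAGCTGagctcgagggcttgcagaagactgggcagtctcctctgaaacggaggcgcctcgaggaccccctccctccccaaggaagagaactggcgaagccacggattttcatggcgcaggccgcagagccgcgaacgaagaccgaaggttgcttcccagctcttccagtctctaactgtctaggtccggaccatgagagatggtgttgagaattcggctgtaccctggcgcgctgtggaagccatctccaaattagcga
Cacna1e: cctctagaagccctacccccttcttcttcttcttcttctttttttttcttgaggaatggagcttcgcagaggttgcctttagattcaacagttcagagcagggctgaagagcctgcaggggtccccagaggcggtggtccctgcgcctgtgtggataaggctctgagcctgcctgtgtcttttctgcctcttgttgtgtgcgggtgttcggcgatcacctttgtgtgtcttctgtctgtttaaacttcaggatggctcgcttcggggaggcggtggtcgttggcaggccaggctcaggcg
Kcnj10: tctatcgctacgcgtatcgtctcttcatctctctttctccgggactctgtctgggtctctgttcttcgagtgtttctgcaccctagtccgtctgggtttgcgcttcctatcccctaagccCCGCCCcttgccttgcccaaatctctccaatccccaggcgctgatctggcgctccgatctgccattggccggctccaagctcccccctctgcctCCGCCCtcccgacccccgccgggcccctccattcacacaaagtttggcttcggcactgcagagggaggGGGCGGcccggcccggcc
Kcnk5: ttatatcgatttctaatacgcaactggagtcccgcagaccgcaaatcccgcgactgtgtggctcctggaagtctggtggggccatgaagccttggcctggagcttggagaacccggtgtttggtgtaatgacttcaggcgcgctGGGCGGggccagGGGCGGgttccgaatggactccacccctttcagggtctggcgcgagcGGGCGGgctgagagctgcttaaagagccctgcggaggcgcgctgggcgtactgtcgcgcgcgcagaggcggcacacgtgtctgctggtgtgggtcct

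Of the 45 members, 31 had a window in the RefSeq table. The first window of each gene held CAGCTG in 11 of the 31, against 16.1% of all gene symbols with a window, and GGGCGG in 21, against 35.9%. CAGCTG stood in 6 of the 10 members first expressed in high-Dcx cells that had a window (Cacna1b, Cacna1c, Cacna2d3, Cacng2, Kcnj3 and Kcnn1) and in 2 of the 5 that mark high-Nestin cells (Cacnb2 and Kcne1l). GGGCGG stood in 6 of the 10 and in all 5. The TATA box TATAAA and the left part of the RE1 element, TTCAGCACC, on either strand, were in 0 of the 31, against 14.2% and 0.359% of all gene symbols. A match describes the letters of the window and does not show binding.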

How the data were processed

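The files deposited by the authors held raw UMI counts for each gene and barcode. The file headers name Cell Ranger 3.0.2, the submitters' processing notes version 3.0.0, and the build was mm10 (GRCm38). Barcodes in them held at least 500 UMIs. The annotation release was not given in the sources used here, and the paper states default Cell Ranger parameters without naming the strand setting. Members were placed by gene ID in GENCODE M21, which matched 138 of 138 members. Members, lists and tests were chosen with earlier results of these data known.

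Cells were kept with over 1500 and under 4500 genes, below 5% mitochondrial and 1% Hbb UMIs, after predicted doublets (122 to 275 per library, at 0.8% per 1000 barcodes, scored against simulated pairs) were removed. This left 3201 to 4749 cells per library. Vascular or microglial cells, mesenchymal cells included, held at least 3 genes of such a list.

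Sums of counts per gate and library were tested with edgeR 4.0.16 (R 4.3.3; quasi-likelihood test, TMM, filterByExpr, library as a block), where SE is the log2 fold change over the square root of F. edgeR and DESeq2 1.42.0 were checked on simulated counts. These had less spread than the main comparison and the same effect in every library, so the check does not cover effects that differ between regions. Intervals of levels, ratios and shares are exact 95% intervals. p-values measure the spread between libraries, which may be technical.

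Named members were, at 10 CPM or more, the 12 with the largest called changes each way (6 in high-Nestin cells), the most abundant of each subfamily, those with opposite ratios between libraries, the 5 with the largest ratio between libraries, Kcnq1ot1 and Kcnj8. Alternatives were DESeq2 and its size factors, no low-count filter, no block, gates at 1.0 and 2.0, thinned cells, doublets or cells past both gates kept, no upper gene limit, vascular and microglial cells removed, MZ cells in place of high-Dcx cells, and each library left out. For genes with no UMI, a floor of 3 counts was used. Results for 2 members are not reported here, though they enter the counts over members.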

Additional observations from a re-analysis of the deposited data

Results flagged for a closer look

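For 4 members the contrast of high-Dcx with high-Nestin cells went in opposite directions in different libraries, each beyond counting error, and the difference between libraries was not tested, since each region had 1 library. The high-Dcx to high-Nestin ratio of Cacna2d1 was 28.4 in CTX, 0.215 in LGE and 0.0574 in MGE. That of Kcnn2 was 7.08 in CTX, 0.608 in LGE and 0.481 in MGE. That of Kcnd2 was 0.339 in CTX against 4.04, 1.69 and 3.08 in LGE, MGE and CGE. That of Cacng7 was 0.856 in CTX and 1.21 in LGE, the smallest of these differences. CTX stood on the other side from LGE and MGE for all 4 genes, where the MGE ratio of Cacng7 was 1.12. In CGE the ratio was 1.23 (0.698 to 2.35) for Cacna2d1 and 1.22 (0.772 to 2.03) for Kcnn2, on the side of CTX with an interval that holds 1, and 1.18 (0.927 to 1.52) for Cacng7. For Cacna2d1 the CTX level went with glutamatergic cells, as the levels by type of neuron show. For Kcnn2 the level was 78.5 CPM in glutamatergic and 57.0 CPM in GABAergic cells of CTX, against 16.9 and 16.0 CPM in those of CGE, so both types were higher in the CTX library.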

How the results depend on the processing

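Of the 39 members called between high-Dcx and high-Nestin cells, 0 turned to the opposite call under any of the 16 alternatives, and the number higher in high-Dcx cells was 52 with no filter on low counts. Leaving out each library gave 29 to 42 members higher in high-Dcx and 3 to 7 higher in high-Nestin cells, and 30 to 38 members higher in MZ and 2 to 4 higher in SVZ cells. The number of members higher in SVZ cells was 1 with DESeq2 and 2 with no library term. With DESeq2, 1669 genes were higher in MZ cells against 2541 by edgeR. The labels give no replicate numbers, so the pairing of the sums came from the library they share. Without the replicate block, 50 of 54 members kept their call between high-Dcx and high-Nestin cells (not Cacna1g, Cacng4, Kcnk2 and Kcnq1ot1; 31 higher in high-Dcx and 6 in high-Nestin cells) and 40 of 47 between MZ and SVZ cells (not Cacna2d2, Cacng7, Kcnh2, Kcnh7, Kcnk2, Kcnn2 and Kcnq1ot1; 28 higher in MZ cells). Leaving out each library gave a log2 fold change of -0.53 (without CTX) to 0.87 (without MGE) for Kcnn2 and -1.39 (without CTX) to 1.73 (without LGE) for Cacna2d1, which was -0.60 with DESeq2, none of them called. Between MZ and SVZ cells, also not called, Cacnb2 was -0.18 without CGE to 0.60 without LGE, and Kcnk10 -0.131 without LGE to 0.083 without CGE and 0.007 with no filter on low counts. In cells thinned to 3000 UMIs, 10 of the 39 called members had too few counts to be tested and 1 lost its call. The numbers first expressed in high-Dcx cells, marking high-Nestin cells or highest in 1 library moved by no more than 1.5 times. The cause of these changes was not tested. Depth limited members below 10 CPM, of which 13 of 93 could be tested.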
